A study of Mus musculus with 4 samples.

Results

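Alternative 5′ and 3′ splice site events were taken from the splicing table of FOB cells, the mature follicular B cells of the spleen, sorted from WT and Hnrnpf bKO mice. The members were every event of type A5SS (alternative 5′ splice site) or A3SS (alternative 3′ splice site), with no other threshold. There were 266 of them among 1555 events, 145 of type A5SS and 121 of type A3SS. They lay in 245 of the 1173 genes of the splicing table, 136 genes with A5SS and 114 with A3SS events, and all 245 were found in the count table. Both the WT and the Hnrnpf bKO mice were Hnrnpf fl/fl, the latter with 1 Cre allele that the former lacked, and both were C57BL/6 and labelled as 7 weeks old. In Hnrnpf bKO mice the Cre recombinase is expressed in B cells and removes the floxed part of Hnrnpf. The controls carried the floxed alleles without Cre, so effects of the Cre allele itself cannot be told apart from the loss of hnRNP F. Poly(A) RNA was sequenced from cells sorted as B220+CD93-CD23highCD21low, in 2 libraries per genotype from a single experiment, and p-values measure only the spread between these libraries.

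A 5′ splice site marks the start of an intron and is first bound by the U1 snRNP, while a 3′ splice site marks the intron's end and is bound by U2AF with the branch point factors that bring in the U2 snRNP. When an exon has a pair of competing 5′ sites or a pair of competing 3′ sites, choosing between them adds or drops a segment at the exon's edge without removing the whole exon. If the segment is a multiple of 3 bases the reading frame is kept, and otherwise the frame shifts and the transcript may become a target of nonsense-mediated decay (NMD). hnRNP F is an RNA-binding protein of the hnRNP F/H family that binds runs of G and is known to influence the choice of splice sites near them.

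The splicing table names each event's gene and type but gives neither its coordinates nor inclusion levels per library. Sites were therefore looked up in the GENCODE M21 annotation of GRCm38, the build of the authors' alignment. Where a gene had a single annotated pair of the listed type, the pair is the annotated candidate for the event, which the table alone cannot settle. The segments below are those of genes with both event types, with several events of 1 type or with a called change in abundance of at least 2-fold, and of genes for RNA processing or lymphocyte signalling, where the pair was single, lay in coding sequence and was at most 60 bases long. Of the 13 segments that met this rule, 12 are shown because they let the size and the sequence of the choice be seen, and that of Aire, a gene under 1 FPKM (fragments scaled to exonic length and library total) in every library, is left out. For A5SS the 12 lower-case bases are the end of the exon shared by both forms, and the capitals are the bases added when the downstream 5′ site is used.
Col27a1, chr4:63273104-63273111, plus strand: ccggactgaaagGTGATAAG
Chuk, chr19:44077246-44077262, minus strand: ctgacatgtgtgGTAACTCCTCAAGATGG
Cwc22, chr2:77903796-77903813, minus strand: gctctacctcagGTATCACGGCTCATTCAG
Traf2, chr2:25538845-25538865, minus strand: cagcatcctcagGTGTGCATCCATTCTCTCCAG
Smarcb1, chr10:75916773-75916799, minus strand: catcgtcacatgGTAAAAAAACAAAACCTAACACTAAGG
Fam219a, chr4:41569177-41569209, minus strand: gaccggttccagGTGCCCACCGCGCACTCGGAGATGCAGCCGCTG
Unk, chr11:116053120-116053158, plus strand: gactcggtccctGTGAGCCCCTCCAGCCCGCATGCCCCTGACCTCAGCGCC
Mtch1, chr17:29336167-29336217, minus strand: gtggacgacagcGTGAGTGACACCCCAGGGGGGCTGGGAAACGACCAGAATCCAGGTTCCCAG
For A3SS the capitals are the bases added when the upstream 3′ site is used, and the 12 lower-case bases are the start of the exon shared by both forms.
Fam219a, chr4:41520396-41520398, minus strand: CAGatcaaccaagat
Exosc10, chr4:148581758-148581761, plus strand: AAAGgtgttggagcca
Psma3, chr12:70983319-70983323, plus strand: TACAGctattgggatca
Spib, chr7:44529930-44529983, minus strand: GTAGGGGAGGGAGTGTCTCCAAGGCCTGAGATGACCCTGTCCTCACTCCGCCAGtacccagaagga

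Each printed A5SS segment opened with the GT that would begin the intron if the upstream site were used, and each A3SS segment closed with the AG that would end it. Runs of at least 3 G stood in the segments of Mtch1, which codes for a carrier-like protein of the mitochondrial outer membrane, and of Spib, which codes for an ETS transcription factor of B cells. The other 10 segments held none, and the sequence outside the segments was not searched. In Traf2, the adaptor of TNF receptors and CD40, the segment of 21 bases keeps the frame, as do those of Cwc22 (18 bases, a splicing factor), Smarcb1 (27 bases, a core subunit of the SWI/SNF remodeller) and Unk (39 bases, an RNA-binding zinc finger protein). In Chuk, which codes for IKK alpha, the segment of 17 bases does not, nor do those of Col27a1 (8 bases, a fibrillar collagen), Exosc10 (4 bases, a nuclease of the RNA exosome) and Psma3 (5 bases, a proteasome subunit).

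Most genes had a single event of either type. Of the 136 A5SS genes, 129 had 1 event, 5 had 2 and 2 had 3, and of the 114 A3SS genes, 107 had 1 and 7 had 2. The genes with 3 A5SS events were Mapk7, which codes for the kinase ERK5, and Tle3, which codes for a Groucho-family corepressor. Those with 2 A5SS events were Fbxw17, Mrps17, Pgap2, Rpe and Smarcb1, and those with 2 A3SS events were Ccdc62, Coq4, Cpsf4, Ecm1, Plekhg2, Sipa1 and Zfp182. Events of both types were listed for 5 genes, Fam219a, Lilr4b, Mtch1, Psma3 and Rasa4. A further event of another type was absent for 93 A5SS genes (68.4%) and 72 A3SS genes (63.2%), against 706 of 816 genes with skipped exons (86.5%) and 154 of 213 genes with retained introns (72.3%). Skipped exons (SE) were the most frequent companion, in 31 A5SS genes (22.8%) and 31 A3SS genes (27.2%), followed by retained introns (RI) in 13 and 14 genes. Genes with skipped exons were 816 of the 1173 genes listed, so a rarer type has more genes to share than they do. The shares were not adjusted for how frequent each type was. Mutually exclusive exons (MXE) were listed for 0 A5SS genes and 5 A3SS genes. Sipa1, which codes for a Rap GTPase-activating protein, held 7 skipped exon events beside its 2 A3SS events.

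**Figure D1:**
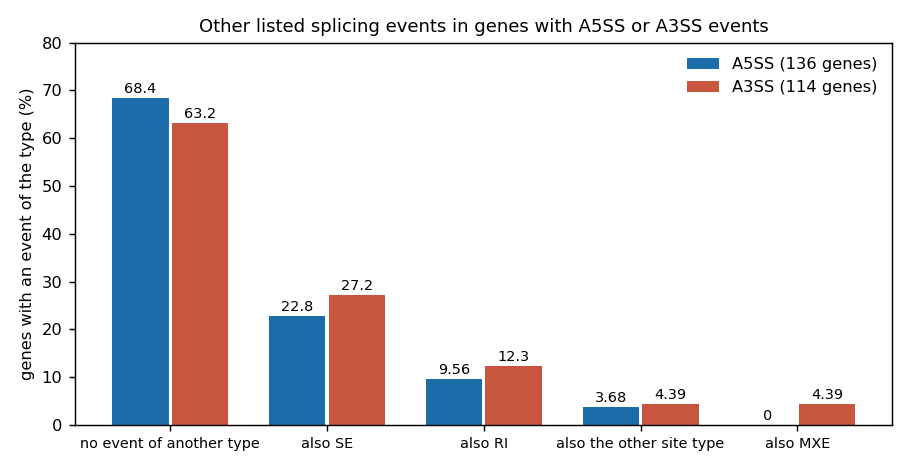
Share of the 136 A5SS genes and the 114 A3SS genes (y axis, percent of genes) that held no event of another type or also held SE, RI, the other splice site type or MXE events (x axis). For both types the tallest bars are genes without another event type, 68.4% and 63.2%, and a gene can stand in several of the other bars.

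Annotated sites that fit the listed type were found for 127 of 136 A5SS genes (93.4%) and for 99 of 114 A3SS genes (86.8%). Among the other tested genes, the shares with such a pair were 11.1% for 5′ sites and 17.5% for 3′ sites. The event caller builds its events from annotated exons and the reads, so the higher share in member genes is no independent finding. No annotated pair of the listed type was found for 9 A5SS genes, among them Atxn2l, Chd3, Incenp, Rasa4 and Xpo1, nor for 15 A3SS genes, among them Cbx5, Cmah, Nfatc2, Srpk2, Trmt2a and Zfp182. In 88 A5SS genes and 45 A3SS genes the pair was single. Several annotated pairs were present in Mrps17 with 10, Mapk7 with 7, Trmt1 with 7 of the A3SS type and Cpsf4 with 6.

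The segment between paired 5′ sites in A5SS genes had a median length of 54 bases (205 pairs, quartiles 21 and 139), against 44 bases over 1880 pairs in other tested genes (quartiles 13 and 111). Between paired 3′ sites in A3SS genes the median was 37 bases (206 pairs, quartiles 8.25 and 97.75), against 29 bases over 3426 pairs elsewhere (quartiles 6 and 74). Segments over 300 bases made up 10.2% of the pairs in A3SS genes and 4.70% of those in other genes, while for 5′ sites the shares were 11.2% and 9.73%. A segment of exactly 3 bases, as left by a pair of 3′ AGs in tandem, was found in 31 of the 206 A3SS pairs (15.0%) and in 1 of the 205 A5SS pairs, against 17.1% and 2.07% elsewhere. Such a triplet was the single pair of 10 A3SS genes, among them Shisa5, Dnmt3b, Brdt, Cdkn3 and Tmem176b. The pairs of 1 gene share its exons and are no independent units, so these shares are descriptions.

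**Figure D2:**
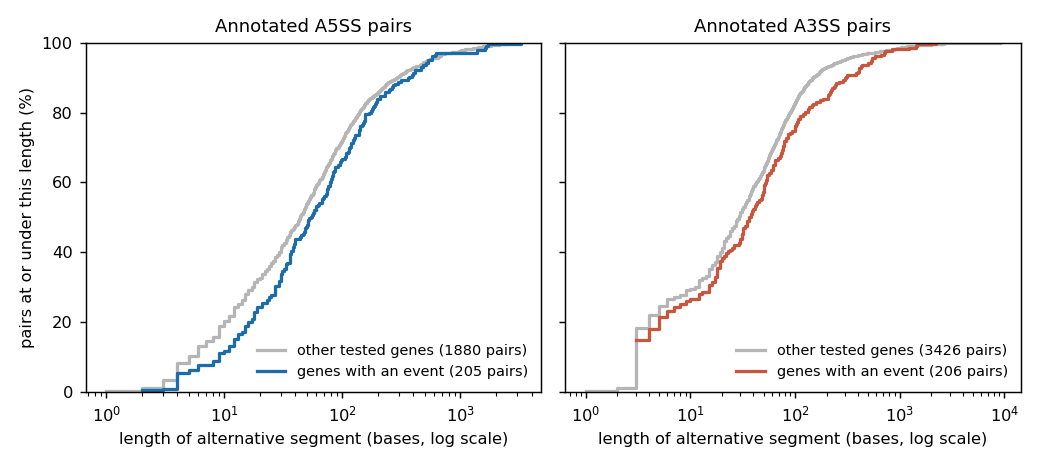
Cumulative share of annotated pairs (y axis, percent) by length of the alternative segment (x axis, bases, log scale) for A5SS (left) and A3SS (right). The coloured line, genes with an event of that type, runs to the right of the grey line, other tested genes, with medians of 54 against 44 bases for A5SS and 37 against 29 for A3SS.

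Multiples of 3 made up 42.9% of segments in A5SS genes and 40.2% elsewhere. In A3SS genes they made up 40.8%, against 50.9% elsewhere. The segment lay wholly in coding sequence for 50.7% of A5SS pairs and 62.1% of A3SS pairs, against 56.7% and 73.7% in other genes. Just 1 of the paired forms was used by a transcript annotated as an NMD target for 31.2% of A5SS pairs and 35.0% of A3SS pairs, and the shares elsewhere were 34.4% and 33.7%. Among the 64 A5SS pairs of this kind, it was the longer form in 37 and the shorter form in 27, and among the A3SS pairs in 39 and 33.

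Runs of at least 3 G (the letters GGG in the transcript sequence, counted once per segment) were present in 110 of 205 A5SS segments (53.7%) and 71 of 206 A3SS segments (34.5%). The shares over other tested genes were 46.3% and 27.8%. The longer segments hold more such runs, so the shares are also given within bands of length. At 31 to 100 bases 55.9% of 68 segments in A5SS genes held a run, against 51.4% of 578 elsewhere. The A5SS shares were 10.4% of 67 against 13.9% of 718 at 4 to 30 bases, and 93.3% of 45 against 86.7% of 338 at 101 to 300 bases. For A3SS the shares were 32.8% of 67 against 38.7% of 1071 at 31 to 100 bases, and 89.3% of 28 against 75.7% of 424 at 101 to 300 bases. The difference thus did not have the same direction in every band for either type. These differences were not tested, and lengths still vary within a band. A run in the annotated segment is a match of letters and shows no binding. The sequence outside the segments was not searched.

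**Figure D3:**
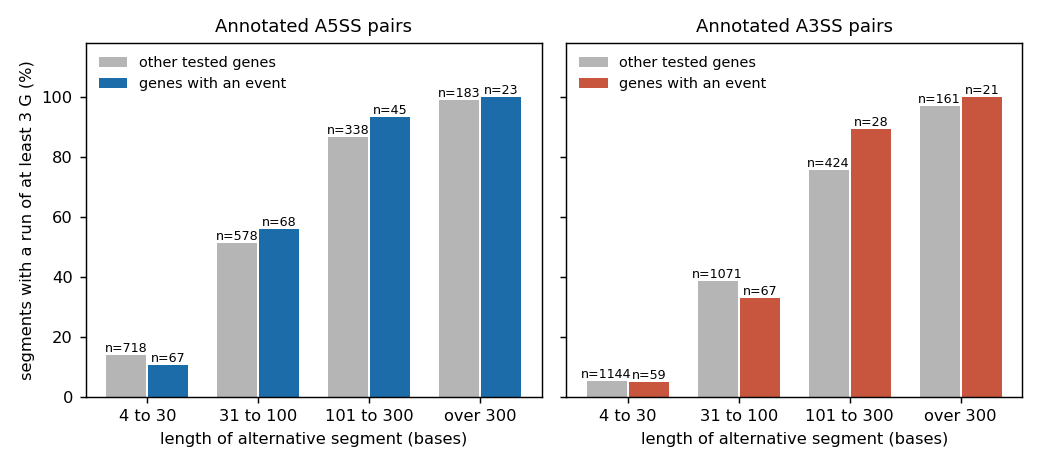
Share of annotated alternative segments with a run of at least 3 G (y axis, percent) by segment length (x axis, bases), for A5SS (left) and A3SS (right), with the number of pairs above each bar. Both genes with an event (coloured) and other tested genes (grey) rise from under 15% at 4 to 30 bases to over 95% above 300 bases.

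Abundance of the same genes was compared between genotypes on the counts, which answers whether genes with these events also changed in total RNA. The libraries held 15698567 to 18908963 counts, and 14123 genes passed the filter on low counts. Hnrnpf itself had 115.95 and 115.14 FPKM in WT against 24.40 and 21.68 in Hnrnpf bKO, 20.1% of the WT level, with a log2 fold change of −2.32 ± 0.06 (SE, adjusted p = 1.05e-10, edgeR quasi-likelihood test with Benjamini-Hochberg adjustment, used throughout). Of the 8 B cell markers, all between 104.9 and 1692.7 mean FPKM, 2 were higher and 4 lower in Hnrnpf bKO. Among all tested genes 4.15% were higher and 2.83% lower. The T cell, erythroid, plasma cell and NK cell lists (6, 3, 4 and 3 genes) had no called gene. Of the 6 myeloid markers, S100a8 and S100a9 were higher and Cd14 had 0 to 3 counts per library, and the list summed to 11.4 and 17.6 CPM (counts scaled to a common library total) in WT against 21.7 and 32.4 in Hnrnpf bKO. Without S100a8 and S100a9 the other 4 summed to 6.42 and 10.3 against 8.98 and 12.6 CPM, with overlapping groups, and Csf1r had a log2 fold change of −0.21. The part of the list in the changes of the member genes was not tested.

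All 136 A5SS genes and 113 of 114 A3SS genes were tested. Rarres2, an A3SS gene with 2 to 5 counts in each library, did not pass the filter. The call was an adjusted p of at most 0.05, without a threshold on the fold. Among the A5SS genes, 13 were higher in Hnrnpf bKO (9.56%) and 7 lower (5.15%), and among all tested genes 4.15% were higher and 2.83% lower. Of the A3SS genes 17 were higher (15.0%) and 3 lower (2.65%). Members were more deeply counted than other genes, with medians of 841 counts for A5SS and 533 for A3SS against 378 over all tested genes. At a mean of at least 100 counts 13 of 127 A5SS genes were higher (10.2%) and 7 lower (5.51%), and 16 of 99 A3SS genes were higher (16.2%) and 3 lower (3.03%), beside a background of 5.23% higher and 3.72% lower. The median log2 fold change was 0.01 for A5SS genes, 0.03 for A3SS genes and −0.00 over all tested genes. Fold changes above 0 were found for 53.7% of the A5SS genes, 61.9% of the A3SS genes and 49.6% of all tested genes, called or not. Without Hnrnpf bKO replicate 2 the lower calls fell to 2 for A5SS and 1 for A3SS, and the higher calls were 9 and 12. RNA per cell and the number of cells contributing it cannot be told apart in bulk samples.

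**Figure D4:**
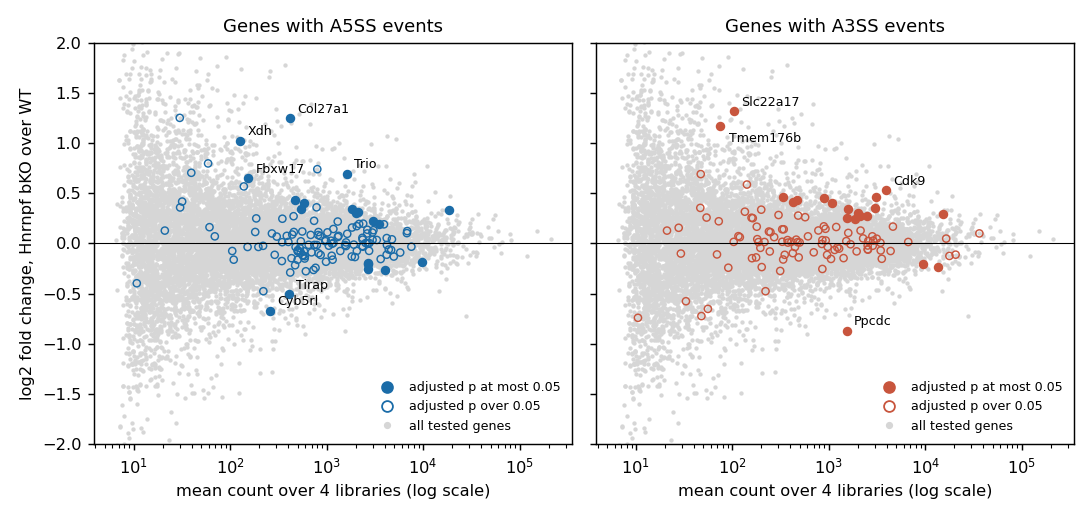
Log2 fold change of Hnrnpf bKO over WT (y axis) against the mean count over 4 libraries (x axis, log scale) for genes with A5SS (left) or A3SS (right) events. Filled circles have an adjusted p of at most 0.05, open circles do not, and grey points are all tested genes, of which 37 lie outside the plotted range. Filled circles lie on both sides of 0 for A5SS, 13 above and 7 below, and mostly above it for A3SS, 17 above and 3 below.

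The members were also split by their other events, beside the 4.15% higher and 2.83% lower among all tested genes. Among A5SS genes with no other event type, 8 of 93 were higher (8.60%) and 2 lower (2.15%), and among those with another type 5 of 43 were higher and 5 lower (11.6% each). For A3SS the counts were 5 higher (7.04%) and 3 lower (4.23%) of 71 tested genes without another type and 12 higher (28.6%) and 0 lower of 42 genes with one. Genes with a single annotated pair wholly in coding sequence were also counted by frame. When the segment was a multiple of 3 bases, 2 of 28 A5SS genes were higher and 0 lower, and when it was not, 2 of 18 were higher and 0 lower. For A3SS the counts were 0 higher and 1 lower of 14, and 0 called of 14. These splits were not tested against each other.

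A change of at least 2-fold passed the test in 4 member genes, beside 0.899% of all tested genes, and all 4 were higher. Col27a1, an A5SS gene, had 1.16 and 1.08 FPKM in WT against 2.48 and 2.79 in Hnrnpf bKO. The log2 fold change was 1.25 ± 0.11 (adjusted p = 2.59e-05), and the only annotated pair has the 8-base segment printed above, whose longer form is used by both a coding transcript and a transcript annotated as an NMD target. Xdh, which codes for the purine-degrading xanthine dehydrogenase, rose from 0.55 and 0.52 to 1.04 and 1.12 FPKM (1.02 ± 0.18 on the log2 scale, adjusted p = 0.00451). The A3SS gene Slc22a17, a receptor for lipocalin 2, had 0.70 and 0.82 FPKM in WT against 1.82 and 1.96 in Hnrnpf bKO (1.32 ± 0.21, adjusted p = 0.00212). Tmem176b, a membrane protein of myeloid and dendritic cells among others, had 1.06 and 1.23 against 2.44 and 2.66 (1.17 ± 0.24, adjusted p = 0.0102). These values rest on 41 and 55 counts against 91 and 114. Without Hnrnpf bKO replicate 2 its adjusted p was 0.0526, which left 3 genes past the 2-fold call. S100a8 and S100a9 of the myeloid list were higher in Hnrnpf bKO too, and their part was not tested. All 4 genes lay below 3 FPKM in every library.

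Other A5SS genes rose by less. Trio, which codes for a guanine nucleotide exchange factor, had 3.0 and 3.22 FPKM in WT against 4.92 and 5.07 in Hnrnpf bKO (0.69 ± 0.06 on the log2 scale, adjusted p = 4.12e-05). Its single annotated pair differs by 12 coding bases. Fbxw17, an F-box gene with 2 A5SS events, had 1.95 and 1.73 against 3.09 and 2.65 FPKM (0.65 ± 0.17, adjusted p = 0.0333), from 122 and 125 counts in WT. This call was lost without WT replicate 2 (adjusted p = 0.116), without Hnrnpf bKO replicate 1 (adjusted p = 0.186) and with DESeq2 on all libraries (adjusted p = 0.106). Of the other A5SS genes that rose, Camk2g, Man2c1 and Snx32 had log2 fold changes from 0.32 to 0.40 and were named after their values were seen. Their adjusted p-values ran from 0.00894 to 0.0474. With DESeq2 13 of the 20 A5SS calls were kept, and the alternatives are not given gene by gene for these 3. Snx32 shares 13.2% of its exonic bases with Cfl1 on the opposite strand.

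Of the 7 A5SS genes that fell, Cyb5rl, a cytochrome b5 reductase-like gene, did so most, from 2.48 in both WT libraries to 1.71 and 1.39 FPKM (−0.67 ± 0.13 on the log2 scale, adjusted p = 0.00902). Without Hnrnpf bKO replicate 2 its adjusted p was 0.0712. Tirap, the adaptor that links Toll-like receptors 2 and 4 to MyD88, had 6.01 and 5.21 FPKM in WT against 3.97 and 3.85 in Hnrnpf bKO (−0.51 ± 0.11, adjusted p = 0.0122). All WT values lay above all Hnrnpf bKO values, but the adjusted p was 0.0647 without WT replicate 1 and 0.0544 without Hnrnpf bKO replicate 2. Its annotated segment has 10 bases and lies outside the coding sequence. Nktr, a cyclophilin-related protein with an RS domain, fell from 11.83 and 11.92 to 9.75 and 9.84 (−0.27 ± 0.05, adjusted p = 0.00627). It shares 10.3% of its exonic bases with E530011L22Rik on the opposite strand. Trak1, a motor adaptor for mitochondrial transport, fell from 13.50 and 13.22 to 11.15 and 11.08 (−0.25 ± 0.05, adjusted p = 0.0114). Brd8, a bromodomain subunit of the NuA4/TIP60 complex, had 15.15 and 16.25 against 13.60 and 13.48 (−0.20 ± 0.06, adjusted p = 0.0441) and lost the call without WT replicate 2 (adjusted p = 0.23), without either Hnrnpf bKO library (adjusted p = 0.124 and 0.135) and with DESeq2 (adjusted p = 0.0992). The remaining falls were those of Atxn2l, given with the RNA processing genes, and of Ap1g2 (−0.20, adjusted p = 0.0458). The alternatives are not given here for Ap1g2.

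Among A3SS genes, Cdk9, the kinase of the elongation factor P-TEFb, rose from 40.91 and 40.41 to 57.39 and 59.12 FPKM (0.53 ± 0.05 on the log2 scale, adjusted p = 6.64e-05). The spread within each genotype was under 2 FPKM, far below the difference. Its only annotated pair differs by 224 bases, and the longer form is annotated as an NMD target. Trmt1, a tRNA methyltransferase, rose from 23.75 and 24.25 to 32.28 and 33.45 (0.47 ± 0.05, adjusted p = 2.00e-04). Unc5cl, a death domain protein, had 5.37 and 4.89 against 7.29 and 6.76 (0.47 ± 0.11, adjusted p = 0.0231) and lost the call without WT replicate 2 (adjusted p = 0.101), without Hnrnpf bKO replicate 1 (adjusted p = 0.113) and with DESeq2 (adjusted p = 0.0832). The 6 A3SS genes that rose and are not described elsewhere, Surf1, Ppp4r1l-ps, Whrn, Flcn, Commd4 and Scamp3, had log2 fold changes from 0.25 to 0.45, with adjusted p-values from 0.00351 to 0.0384. Scamp3 shares 11.1% of its exonic bases with Gm16069 on the opposite strand.

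Of the A3SS genes 3 fell. Ppcdc, an enzyme of coenzyme A synthesis, had 19.48 and 20.18 FPKM in WT against 11.97 and 9.62 in Hnrnpf bKO (−0.87 ± 0.08 on the log2 scale, adjusted p = 7.12e-05), the largest called fall of either type. Its single annotated pair differs by 218 bases with 5 runs of at least 3 G, and the longer form is annotated as an NMD target. The part of the annotated forms in the abundance of Ppcdc or Cdk9 was not tested. Spib fell from 289.7 and 300.3 to 247.9 and 249.0 FPKM (−0.24 ± 0.05, adjusted p = 0.00828), with adjusted p-values of 0.0716 and 0.0638 when either Hnrnpf bKO library was left out. Cmah, which makes the N-glycolyl form of sialic acid, fell from 53.95 and 56.61 to 47.39 and 47.43 (−0.21 ± 0.05, adjusted p = 0.0184). It lost the call without WT replicate 2 (adjusted p = 0.0626) and without either Hnrnpf bKO library (adjusted p = 0.106 and 0.102). The FPKM values of the genotypes did not overlap in the 38 called genes of both types, as in 49.8% of all tested genes, and the call itself nearly fixes this.

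**Figure D5:**
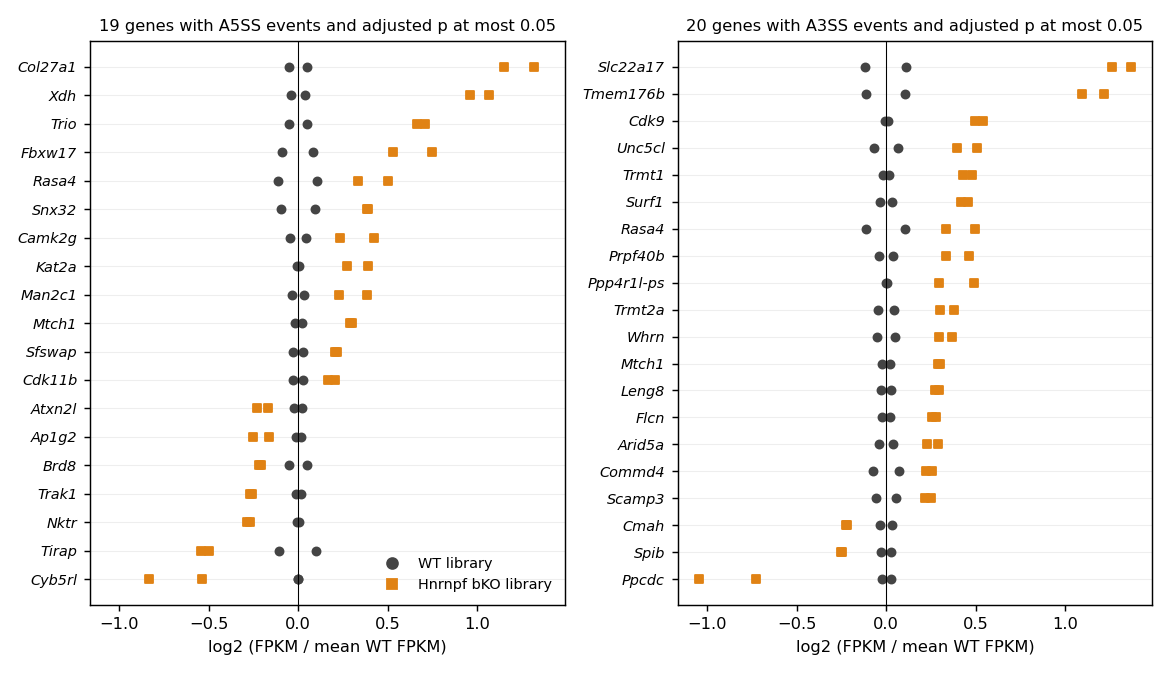
Log2 of each library's FPKM over the mean WT FPKM (x axis) for 19 A5SS genes (left) and 20 A3SS genes (right) with an adjusted p of at most 0.05, ordered by fold change (y axis). Circles are WT libraries and squares are Hnrnpf bKO libraries, and in every gene the squares stand apart from the circles, to the right in 12 and 17 genes and to the left in 7 and 3. Mtch1 and Rasa4 stand in both panels.

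The 5 genes with both event types differed in level and change. Mtch1 rose from 18.44 and 18.98 to 22.90 and 23.04 FPKM (0.31 ± 0.06 on the log2 scale, adjusted p = 0.00543). Rasa4, a Ras GTPase-activating protein, had 3.32 and 2.85 against 3.89 and 4.36 (0.44 ± 0.11, adjusted p = 0.0274), a call lost without WT replicate 2 (adjusted p = 0.142), without Hnrnpf bKO replicate 2 (adjusted p = 0.188) and with DESeq2 (adjusted p = 0.0737). Fam219a had 4.09 and 3.93 against 3.35 and 2.39 FPKM (−0.48 ± 0.16, adjusted p = 0.0990). The Hnrnpf bKO libraries of Fam219a differed from each other by more than the nearer of them did from WT, and 15.6% of its exonic bases are shared with its antisense gene Fam219aos. Psma3 had 10.60 and 10.88 against 10.52 and 9.53 (adjusted p = 0.607). Lilr4b, a receptor of the leukocyte immunoglobulin-like family, lay between 0.14 and 0.32 FPKM in the 4 libraries, from 12 to 31 counts (0.13 ± 0.46, adjusted p = 0.916).

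Of the 14 genes with several events of 1 type, Fbxw17 passed the test (7.14%), beside 6.97% of all tested genes in either direction. Smarcb1 had 15.09 and 14.69 FPKM in WT against 16.61 and 17.16 in Hnrnpf bKO (0.19 on the log2 scale, adjusted p = 0.058). Tle3 had 18.86 and 19.32 against 17.36 and 16.65 (−0.16, adjusted p = 0.0931), and Cpsf4, a cleavage and polyadenylation factor, had 14.49 and 15.52 against 12.09 and 12.86 (−0.25, adjusted p = 0.0768). Mapk7 had 8.57 and 11.17 against 9.99 and 9.44, with the Hnrnpf bKO values inside the WT range. Sipa1 was among the most abundant of the A3SS genes, at 282.9 and 281.1 against 257.0 and 260.6 FPKM (−0.11, adjusted p = 0.172). The highest FPKM values were those of the A3SS genes Shisa5 (619.85 and 619.81 against 648.8 and 668.5, adjusted p = 0.232) and Rsrp1 (317.1 and 326.5 against 297.8 and 287.8, adjusted p = 0.133).

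Genes of RNA processing and decay formed a list of 12 A5SS and 12 A3SS genes. Beside the calls of this list stand 4.15% higher and 2.83% lower among all tested genes. Lists of this size were not tested against those shares. Of the A5SS genes 1 rose and 2 fell, with a median log2 fold change of 0.03, and of the A3SS genes 2 rose and 0 fell, with a median of 0.00. Sfswap, an SR-like splicing regulator, rose from 19.80 and 20.54 to 23.27 and 23.39 FPKM (0.22 ± 0.05, adjusted p = 0.022), a call lost without WT replicate 1 (adjusted p = 0.109) and without either Hnrnpf bKO library (adjusted p = 0.0594 and 0.0921). Atxn2l, a stress granule protein, fell from 123.1 and 126.8 to 106.4 and 111.3 (−0.19 ± 0.05, adjusted p = 0.0359), and lost the call without WT replicate 2 (adjusted p = 0.0846) and without either Hnrnpf bKO library (adjusted p = 0.256 and 0.0823). Nktr was the other fall. Leng8, a gene related to mRNA export factors, rose from 122.7 and 127.6 to 153.8 and 151.4 FPKM (0.30 ± 0.05, adjusted p = 0.0019), and its annotated segment of 160 bases outside the coding sequence holds 5 runs of at least 3 G. Prpf40b, a U1-associated factor, rose from 4.46 and 4.21 to 5.97 and 5.46 (0.41 ± 0.10, adjusted p = 0.0245), which was lost without WT replicate 2 (adjusted p = 0.0957), without Hnrnpf bKO replicate 1 (adjusted p = 0.135) and with DESeq2 (adjusted p = 0.0916). Tardbp, which codes for TDP-43, had 48.48 and 49.43 against 53.19 and 52.57 (adjusted p = 0.157), with 23.3% of its exonic bases shared with Masp2 on the opposite strand. Cwc22 had 7.64 and 7.71 against 7.24 and 6.84 (adjusted p = 0.44).

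Lymphocyte signalling and identity held 13 A5SS genes, of which 1 rose and 1 fell (median −0.00), and 11 A3SS genes, of which 1 rose and 2 fell (median −0.11). Over all tested genes the shares were 4.15% higher and 2.83% lower. The A5SS fall was that of Tirap, described above. Components of the NF-kB pathway that passed no test were Traf2 (17.65 and 17.90 against 16.52 and 18.34 FPKM), Chuk (22.04 and 21.46 against 19.75 and 19.65, adjusted p = 0.218) and Map3k7, the kinase TAK1 (14.82 and 14.25 against 14.61 and 13.71). The groups overlapped for Traf2 and Map3k7 and not for Chuk. Among the A3SS genes Spib and Cmah fell and Arid5a, an AT-rich DNA- and RNA-binding protein, rose from 10.71 and 10.16 to 12.21 and 12.76 (0.27 ± 0.06, adjusted p = 0.0125), with adjusted p-values of 0.0665 without WT replicate 2 and 0.0718 without Hnrnpf bKO replicate 2. Tcf4, the E protein E2-2, had 5.45 and 5.37 against 5.14 and 5.43 FPKM, and Nfatc2 had 6.43 and 5.78 against 5.31 and 5.57 (adjusted p = 0.296). Fcer1g, the gamma chain of Fc receptors, was between 1.05 and 2.42 FPKM in the 4 libraries (adjusted p = 0.683).

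Chromatin and transcription genes numbered 21 for A5SS, with 1 rise and 1 fall (median 0.00), and 9 for A3SS, with 1 rise and 0 falls (median 0.02). The shares over all tested genes were 4.15% higher and 2.83% lower, here and for the genome maintenance genes below. Kat2a, the histone acetyltransferase GCN5, rose from 27.15 and 27.35 to 32.86 and 35.72 FPKM (0.34 ± 0.06, adjusted p = 0.00539), and its single annotated segment of 195 bases lies outside the coding sequence with 5 runs of at least 3 G. Brd8 was the fall and Cdk9 the A3SS rise. Dnmt3b, a DNA methyltransferase whose only annotated pair is a 3-base tandem, had 2.56 and 2.87 against 2.98 and 2.85 (adjusted p = 0.678). Hira, a histone chaperone, had 4.29 and 5.28 against 4.51 and 4.51, with 44.7% of its exonic bases shared with Gm28539. In genome maintenance and mitosis 1 of 8 A5SS genes rose and 0 fell (median 0.02), and of 9 A3SS genes 0 were called (median 0.06). The rise was that of Cdk11b, a cyclin-dependent kinase tied to transcription and splicing, from 51.04 and 49.12 to 57.72 and 56.21 FPKM (0.20 ± 0.05, adjusted p = 0.0384), a call lost when any single library was left out, with adjusted p-values from 0.0503 to 0.191, and with DESeq2 on all libraries (adjusted p = 0.0763). Brca2, the recombination mediator, had 1.43 and 1.76 against 1.70 and 1.65 FPKM (adjusted p = 0.771).

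Among tRNA and translation genes 0 of 8 A5SS genes were called (median −0.06), while 2 of 7 A3SS genes rose and 0 fell (median 0.03). Over all tested genes the shares were 4.15% higher and 2.83% lower. The rises were those of the tRNA methyltransferases Trmt1, given above, and Trmt2a, which went from 27.91 and 29.67 to 35.45 and 37.46 FPKM (0.35 ± 0.06, adjusted p = 0.00247). Trmt2a shares 16.5% of its exonic bases with Dgcr8 on the opposite strand and also held SE, RI and MXE events. Wdr4, the partner of another tRNA methyltransferase, had 10.23 and 9.46 against 9.64 and 10.26 (adjusted p = 0.883). Mtg2, a mitochondrial ribosome GTPase of the A5SS list, had 6.28 and 6.71 against 5.26 and 5.38 (−0.28 ± 0.08, adjusted p = 0.0717).

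The factors that recognise the splice sites were counted as a separate list, most of them without an event of their own here. Of 15 genes for 5′ splice site recognition 3 rose and 1 fell (median 0.10), and of 17 genes for 3′ splice site recognition 0 were called (median 0.01, range −0.07 to 0.17), beside 4.15% higher and 2.83% lower among all tested genes. The lists were not tested against each other. Snrnp70, the U1-70K protein, rose from 95.95 and 98.35 to 119.3 and 118.2 FPKM (0.30 ± 0.05, adjusted p = 0.00162). Luc7l2, a U1-associated factor, had 27.76 and 32.37 against 38.34 and 34.11 (0.28 ± 0.07, adjusted p = 0.0302), and lost the call without WT replicate 1 (adjusted p = 0.135) and without Hnrnpf bKO replicate 1 (adjusted p = 0.189). Tia1, which helps U1 to bind weak 5′ sites, fell from 10.37 and 11.11 to 9.28 and 8.95 (−0.23 ± 0.06, adjusted p = 0.027), with adjusted p-values of 0.149 without WT replicate 2 and 0.056 and 0.127 without either Hnrnpf bKO library. Prpf40b, itself an A3SS gene, was the remaining rise. For U2af2, the large U2AF subunit, the values were 92.97 and 96.35 against 87.83 and 91.66 FPKM (adjusted p = 0.52), and for Sf3b1 they were 87.98 and 89.23 against 88.59 and 87.68 (adjusted p = 0.976).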

How the data were processed

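RNA of sorted FOB cells was sequenced in 2 WT and 2 Hnrnpf bKO libraries. The authors trimmed reads with Cutadapt 1.9.1, aligned them to GRCm38 with Hisat2 2.0.1 and counted them with HTSeq 0.6.1 per the labels. The strand setting and annotation release are not given in the sources used here, and the library kit does not mark strand. Overlapping genes are therefore uncertain, and 38 of 245 member genes share over 10% of their exonic bases with another gene. The deposited counts are whole, unnormalized reads per gene, and the authors scaled the same counts to exonic size and library total to give the deposited FPKM values. The splicing table, made by the authors with rMATS on the same 4 libraries, lists a type and a gene for events past the authors' thresholds, so splicing was not tested again. Its columns of FDR and inclusion level difference are the authors' comparison and were not used, except that 1 exact repeated row, of a skipped exon, was dropped.

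Counts were compared with edgeR 4.0.16 in R 4.3.3 (TMM, filterByExpr, quasi-likelihood test, Benjamini-Hochberg adjustment over 14123 genes). DESeq2 1.42.0, RLE size factors, other filters, the replicate block and each library left out were alternatives. Simulated data of this comparison held 14123 genes. Of the changed ones, 43 of 50 were called at a fold of 0.667 and 50 of 50 at each of 1.5, 2 and 4. Changed genes were drawn only where the expected count was 100 or more, and every gene was given the same spread between libraries. These shares therefore do not cover members with fewer counts or a wider spread. Libraries of 1 genotype were further apart than sampling noise allows (chi-square per degree of freedom 4.39 and 3.97). An exact permutation test of 2 against 2 libraries cannot go below p = 0.333 and was not run. GENCODE M21 gave the paired sites: forms of an exon that differ at 1 splice site, share their other end and join the same neighbouring exon. Sequences came from its transcripts. Tables were made with Python 3.11.15, pandas 2.3.3 and matplotlib, and counts limit precision by counting error and library spread.

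Members, gene lists and the naming rule were chosen with earlier results of these data known. The rule named genes with both types or several events, called 2-fold changes, the 8 largest called rises and falls at a mean of at least 100 counts, the 3 highest FPKM of each type, and members of the lists (5 roles, 2 splice site recognition lists, 6 marker lists). A few genes that this rule names are not reported here by name, though they remain in the counts.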

Additional observations from a re-analysis of the deposited data

How the results depend on the processing

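The 6 comparisons of abundance were repeated under 9 alternatives. With DESeq2, A5SS genes higher in Hnrnpf bKO numbered 8, and the DESeq2 counts for the whole table were 399 higher and 277 lower. Without a filter on low counts there were 20 A5SS genes higher, 5 A3SS genes lower and 636 genes lower in all. With the replicate block 4 A5SS genes were lower, beside 378 genes higher and 234 lower in all. Under it the calls of Atxn2l, Brd8, Cdk11b, Cmah, Fbxw17, Luc7l2, Prpf40b, Rasa4, Sfswap and Tia1 were lost, with adjusted p-values from 0.0508 to 0.112. The numbers in the labels pair no mice that a source names, and deviations of same-numbered libraries correlated at −0.09 over 13921 genes. When each library was left out in turn, with the lone sample assumed to vary like the other genotype, A5SS genes numbered 9 to 12 higher and 2 to 6 lower and A3SS genes 12 to 15 higher and 1 to 3 lower. Over all tested genes these fits gave 347 to 542 higher and 255 to 383 lower, and 3 to 5 member genes passed 2-fold. Log2 fold changes of Hnrnpf stayed between −2.40 and −2.24. Of 450 pairs of a named gene and an alternative, 383 kept direction and side of the threshold, 53 lost the call (16 of them with all libraries used), 5 gained it and 9 changed sign. The sign changes were in genes without a call, with ranges over the left-out libraries of −0.59 to 0.58 for Lilr4b, −0.13 to 0.065 for Lrmp, −0.19 to 0.18 for Mapk7, −0.23 to 0.023 for Mrps17, −0.0093 to 0.18 for Rpe and −0.043 to 0.18 for Zfp182. Restricting the annotation to transcripts tagged basic left 48 A5SS genes and 43 A3SS genes with a pair. A run of at least 4 G was present in 52 A5SS and 39 A3SS segments. The cause of these shifts was not tested. Low counts limit genes such as Lilr4b, Cdkn3 and Brdt.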

Other observations

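Gm47283, an A5SS gene annotated on chromosome Y of GRCm38, was counted 344 and 908 times in WT against 909 and 1038 times in Hnrnpf bKO, so its WT libraries differed more from each other than WT replicate 2 did from either Hnrnpf bKO library (log2 fold change 0.74 ± 0.23, adjusted p = 0.0784). Xist had between 30322 and 33674 counts and Ddx3y, Eif2s3y, Kdm5d and Uty had 0 counts in all 4 libraries.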
